A study of Mus musculus with 6 samples.

Results

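The 7 mouse genes for cyclin-dependent kinase (CDK) inhibitors were followed in C2C12 cells, an established mouse skeletal muscle cell line, 2 days after the change to differentiation medium. They comprise the 3 Cip/Kip genes, Cdkn1a (p21), Cdkn1b (p27) and Cdkn1c (p57), and the 4 INK4 genes, Cdkn2a, Cdkn2b, Cdkn2c and Cdkn2d. Members were chosen by gene family, through the RefSeq accession given for each probe. All 7 were on the array, among 20659 gene symbols, with 10 probes and 19 of 43020 non-control spots. Of 6 arrays, 3 were hybridised with RNA from cells given the control siRNA si-NC and 3 with RNA from cells given si-SYISL, an siRNA against the long noncoding RNA SYISL. Both groups were grown in 10% fetal bovine serum, transfected, and held in 2% horse serum while they differentiated. The comparison asks how RNA levels differed once SYISL had been targeted in differentiating muscle cells. No other line, time or second siRNA was among the arrays used here.

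CDK inhibitors stop the cell cycle by binding kinases that drive it. INK4 proteins bind the monomeric kinases Cdk4 and Cdk6 and keep D-type cyclins from joining them, whereas Cip/Kip proteins bind cyclin and kinase together and act mainly on complexes that contain Cdk2. When these kinases are held back, the pocket proteins Rb1, Rbl1 and Rbl2 keep E2F transcription factors inactive and the cell does not enter S phase. In muscle precursors, leaving the cell cycle precedes fusion into myotubes, and p21 and p57 are known to be needed together for that step in the mouse.

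Replicates 1 and 3 of each group were nearly the same measurement. For 309 probes printed in replicate on the array, the squared difference of their array means was divided by its squared standard error, taken from the spots. The mean ratio was 0.237 for si-NC and 0.153 for si-SYISL, and the other 13 pairs of arrays gave 30.1 to 203. Replicates 1 and 3 thus differed by less than the sampling noise, so each such pair was merged into 1 sample by its mean, and n is 2 per group throughout. According to the file headers, replicates 1 and 2 were scanned together and replicate 3 of both groups in another scan, and replicates 1 and 3 of a group carry the same array position number. The labels do not say whether replicates came from separate cultures, so the spread behind each p-value may be technical. Spots well above background made up 78.18% to 84.62% of non-control spots in si-NC and 87.86% to 90.61% in si-SYISL, and no spot was saturated. All 8 muscle lineage markers were above background on every array, and their summed signal, in multiples of each array's 75th percentile, was 51.3 to 54.2 in si-NC and 61.7 to 64.1 in si-SYISL. The sum does not give the direction of each marker. Myod1, which is among them, was lower in si-SYISL. As log2 of that multiple, its samples were at 0.87 and 0.90 in si-NC and at 0.17 and 0.37 in si-SYISL. Of 4 epithelial markers, 1 was above background on all si-NC arrays and 3 on all si-SYISL arrays, with summed signals of 0.029 to 0.045 and 0.188 to 0.241, and the part of this in the results below was not tested. The reference table held 0 genes under the name SYISL, so the fall in SYISL that the siRNA aims at was not measured here. As these are bulk samples, fewer cells of a type and less RNA per cell cannot be told apart.

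None of the 7 inhibitor genes passed the test at an adjusted p of 0.05 (limma, Benjamini-Hochberg over all 28563 features), and neither did any other feature (smallest adjusted p of 0.084), so the background share called was 0%. At an unadjusted p under 0.05, Cdkn2b was higher and Cdkn2c lower in si-SYISL, against 16.8% of all features higher and 5.85% lower (6465 features in all). In levels before any median was subtracted, both samples of si-SYISL exceeded both of si-NC for 4 members. This also held for 46.3% of all features. Cdkn1c and Cdkn2c were separated in the opposite direction, like 15.8% of features, and in Cdkn2d the groups overlapped. Levels are given as log2 of the processed signal less the array's 75th percentile. Differences are given as si-SYISL minus si-NC, less the median difference of all features, which was 0.16. Every limma p-value, adjusted or not, tests the difference before that median is subtracted. On that scale the median of the 7 members was 0.042, the 3 Cip/Kip genes ran from -0.32 to 0.16, and the 4 INK4 genes ran from -1.08 to 3.02. Cdkn2a and Cdkn2b passed the filter on low signal only through si-SYISL, a selection that favours higher values in that group. The 5 members above background on all 6 arrays had a median of -0.055. In levels before subtraction, 2 of these were higher, 2 lower and 1 overlapping. The gap between the groups of Cdkn1a and of Cdkn2a was narrower than 0.16, so it does not remain after subtraction.

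**Figure D1:**
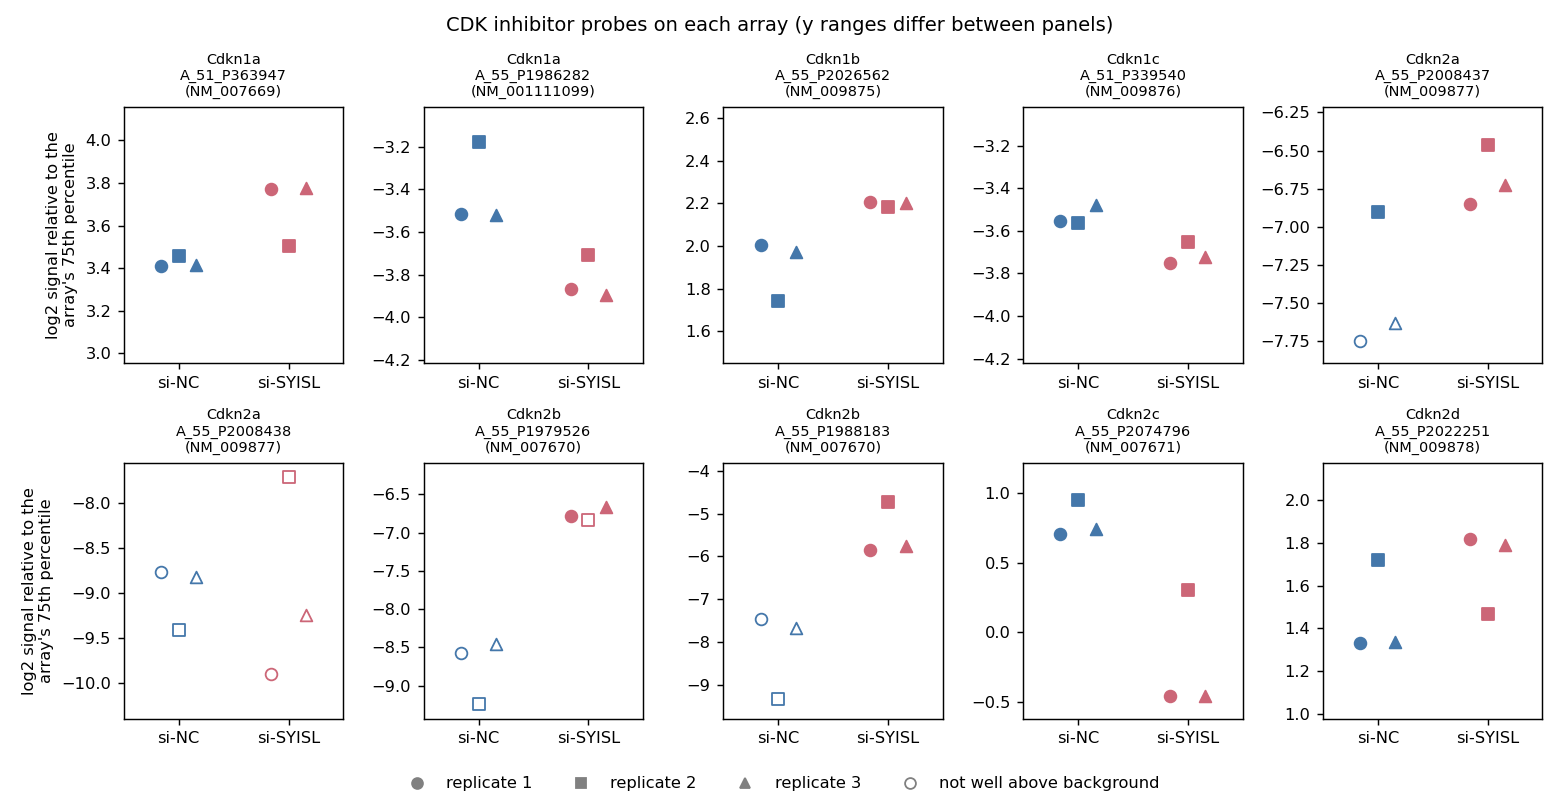
Log2 level of each of the 10 CDK inhibitor probes on the 6 arrays (y axis, relative to the array's 75th percentile), by group (x axis). Circles, squares and triangles are replicates 1, 2 and 3, an open symbol is a probe not well above background, and y ranges differ between panels. Cdkn2c is lower on all 3 si-SYISL arrays (-0.46 to 0.31) than on the si-NC arrays (0.71 to 0.95), and all 3 si-NC arrays of Cdkn2b are open.

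Cdkn1a encodes p21, an inhibitor of Cdk2 complexes that p53 and MyoD are known to induce. Its first probe (A_51_P363947, RefSeq NM_007669) is printed in 10 spots, whose coefficient of variation within an array was 2.99% to 6.96%. Its log2 level was 3.41, 3.45 and 3.42 in si-NC, for replicates 1 to 3, and 3.77, 3.50 and 3.78 in si-SYISL. All si-SYISL arrays lay above all si-NC arrays, the replicate 2 array by the least. Less the median of all features, the difference was 0.042 ± 0.14 (SE, n = 2 samples a group; 95% interval -0.34 to 0.42; adjusted p of 0.395 by limma before the median was subtracted). The interval takes the median as fixed.

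In levels before subtraction, a second Cdkn1a probe (A_55_P1986282, RefSeq NM_001111099) lay the other way. Its log2 level was -3.51, -3.18 and -3.52 in si-NC and -3.87, -3.71 and -3.89 in si-SYISL, lower on every si-SYISL array. In a limma fit of every probe its difference was -0.61 ± 0.17 (SE, n = 2 a group), with an adjusted p of 0.225. Within an array, the first probe exceeded the second by 6.92, 6.63 and 6.94 log2 units in si-NC and by 7.64, 7.21 and 7.67 in si-SYISL. The means over samples were 6.78 ± 0.21 and 7.43 ± 0.31 (SD, n = 2), a difference of 0.65 that was not tested, and the groups did not overlap. With 2 samples a group, this describes these arrays only.

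RefSeq (GRCm38.p6) gives more than 1 start for Cdkn1a, and the tables used here do not say which start belongs to which accession. Since the levels of the probes before subtraction lay in opposite directions, the windows around both starts are shown, each with 250 bases before and 50 after the start. After subtraction the first probe was at 0.042 ± 0.14 (SE), within its error of no difference. Capitals mark motifs found on either strand. The E-box, which MyoD and related factors bind, was searched as CANNTG. The box bound by Sp1 and related factors, here called the GC box, was searched as GGGCGG. The third motif, the core promoter element of many regulated genes known as the TATA box, was searched as TATAA, and the last was the p53 half-site. The first window, chr17:29090729-29091028 on the plus strand, holds 2 p53 half-sites, 1 E-box and 1 TATA box. The second, chr17:29093519-29093818 on the plus strand, holds 2 E-boxes, 2 GC boxes and 1 TATA box. Of 32851 promoter windows of this length, 8.36% hold a p53 half-site, 72.3% an E-box, 35.7% a GC box and 24.9% a TATA box. No motifs overlap in either window, and a match describes letters, not binding.
Cdkn1a, first window: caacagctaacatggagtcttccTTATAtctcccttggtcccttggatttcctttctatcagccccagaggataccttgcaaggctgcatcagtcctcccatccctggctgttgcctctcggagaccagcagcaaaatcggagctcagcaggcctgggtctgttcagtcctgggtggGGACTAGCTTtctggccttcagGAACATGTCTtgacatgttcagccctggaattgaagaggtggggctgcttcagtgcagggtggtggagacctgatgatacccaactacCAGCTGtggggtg
Cdkn1a, second window: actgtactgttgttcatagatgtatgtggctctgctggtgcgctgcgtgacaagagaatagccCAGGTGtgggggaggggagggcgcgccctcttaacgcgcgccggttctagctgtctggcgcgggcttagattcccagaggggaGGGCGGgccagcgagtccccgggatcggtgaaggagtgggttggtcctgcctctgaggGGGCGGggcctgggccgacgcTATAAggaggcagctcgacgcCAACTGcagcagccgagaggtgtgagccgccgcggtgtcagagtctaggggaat

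Cdkn1b encodes p27, which holds cyclin E and Cdk2 inactive in resting cells and is removed through Skp2. Its level was 2.01, 1.74 and 1.97 in si-NC and 2.20, 2.18 and 2.20 in si-SYISL (A_55_P2026562, NM_009875). The si-SYISL arrays were all above the si-NC arrays, with si-NC replicate 2 the lowest. The difference was 0.16 ± 0.14 (SE, n = 2 a group; adjusted p of 0.245, limma). Cdkn1c encodes p57, an imprinted inhibitor expressed from the maternal allele. Its level was -3.55, -3.56 and -3.48 in si-NC and -3.75, -3.65 and -3.72 in si-SYISL (A_51_P339540, NM_009876). Every si-SYISL array was below every si-NC array, over a narrow range in both groups. Its difference was -0.15 before and -0.32 ± 0.11 after subtraction of the median of all features (SE, n = 2 a group; adjusted p of 0.414, limma).

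Among the INK4 genes, Cdkn2c (p18), an inhibitor of Cdk4 and Cdk6 known to rise as myoblasts differentiate, had the lowest value. Its level was 0.71, 0.95 and 0.74 in si-NC and -0.46, 0.31 and -0.46 in si-SYISL (A_55_P2074796, NM_007671). The groups did not overlap, and si-SYISL replicate 2 was the nearest to the control arrays. The difference of -1.08 ± 0.29 (SE, n = 2 a group, 95% interval -1.86 to -0.30) amounts to a signal 2.11-fold lower relative to the median feature. Before subtraction of the median the difference was -0.92, with an adjusted p of 0.187 (limma, unadjusted 0.030). Between arrays of 1 scan it was -1.07 in the scan of replicates 1 and 2 and -1.30 in the scan of replicate 3. The latter compares 1 array a group, and those arrays nearly repeat replicate 1, so these values are not independent checks. RefSeq gives 2 starts for the gene, and the tables do not say which the probe's accession uses. The window around the upstream start, chr4:109666707-109667006 on the minus strand, holds 4 GC boxes and 0 E-boxes, and that around the downstream start, chr4:109665323-109665622, holds 0 GC boxes and 1 E-box. Both are shown, with motifs in capitals, because this member had the largest difference of those above background on all arrays.
Cdkn2c, upstream window: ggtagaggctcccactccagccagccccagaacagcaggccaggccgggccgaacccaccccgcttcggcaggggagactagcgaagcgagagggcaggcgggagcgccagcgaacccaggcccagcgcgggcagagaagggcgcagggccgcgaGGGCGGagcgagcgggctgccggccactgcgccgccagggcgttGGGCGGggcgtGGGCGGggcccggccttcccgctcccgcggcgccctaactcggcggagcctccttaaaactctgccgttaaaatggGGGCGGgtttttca
Cdkn2c, downstream window: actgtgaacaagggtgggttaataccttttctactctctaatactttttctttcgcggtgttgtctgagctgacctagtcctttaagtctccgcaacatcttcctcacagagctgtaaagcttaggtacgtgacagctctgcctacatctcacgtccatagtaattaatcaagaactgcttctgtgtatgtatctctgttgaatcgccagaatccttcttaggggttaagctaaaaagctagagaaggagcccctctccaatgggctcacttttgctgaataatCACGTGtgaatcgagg

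Cdkn2b (p15), an INK4 inhibitor induced by TGF-beta signalling in many cell types, had the highest value. Its kept probe (A_55_P1988183, NM_007670) was well above background on 0 of 3 si-NC arrays and on 3 of 3 si-SYISL arrays. The processed intensity was 13.7, 4.40 and 13.05 in si-NC and 42.6, 76.0 and 49.8 in si-SYISL, where the local background had a median of 34 to 50 across arrays. All si-SYISL arrays were brighter than all si-NC arrays. Against a floor for si-NC, set on each array at the dimmest signal that its flags counted as detected, the mean of si-SYISL was 3.35-fold higher, before subtraction of the median. As other probes can go undetected at brighter signals, this ratio is not a strict lower bound. The fitted difference was 3.02 ± 0.70 (SE, n = 2 a group) with an adjusted p of 0.139 (limma, unadjusted 0.009). This value depended on the handling of the background, at 0.70 with normexp correction, where the adjusted p was 0.226, and it was 1.82 between the arrays of the replicate 3 scan alone. With si-NC replicates 1 and 3 left out, the difference was 3.89. In that fit the lone si-NC sample, not above background, is assumed to vary like the si-SYISL samples.

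The second Cdkn2b probe (A_55_P1979526) had a processed intensity of 6.41, 4.70 and 7.58 in si-NC and 22.2, 17.7 and 26.5 in si-SYISL. It was above background on none of the si-NC arrays and 2 of the si-SYISL arrays, so it was not kept. Against the same floor for si-NC, its si-SYISL mean was 1.17-fold higher before subtraction of the median, compared with 3.35-fold for the kept probe. Both probes thus lay the same way, near the detection limit, but the second hardly rose above that floor. The dimmest quartile of all features had a median difference of 0.36 before any subtraction, and the 1005 features below background throughout si-NC had a median of 0.88 (10th to 90th percentile 0.43 to 1.52). The brightest quartile had a median of 0.080, and the share of spots above background was higher on each si-SYISL array; the part of these in the Cdkn2b value was not tested. The RefSeq window at the Cdkn2b start, chr4:89310983-89311282 on the minus strand, is printed as that of the member with the highest value. It holds 1 E-box and 1 GC box, in capitals.
Cdkn2b, start window: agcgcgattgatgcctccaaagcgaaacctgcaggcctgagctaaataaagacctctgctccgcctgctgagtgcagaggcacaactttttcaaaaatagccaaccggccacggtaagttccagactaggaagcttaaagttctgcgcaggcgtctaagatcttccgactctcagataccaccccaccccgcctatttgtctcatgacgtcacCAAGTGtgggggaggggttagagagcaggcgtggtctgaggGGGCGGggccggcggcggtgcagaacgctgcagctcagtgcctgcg

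Cdkn2a encodes p16 and, from another first exon, p19ARF, which stabilises p53. Which of these transcripts the probes read is not given here, so their values are not taken as p16 levels. Its first probe (A_55_P2008437, NM_009877) had a processed intensity of 11.3, 23.7 and 13.5 in si-NC and 21.2, 22.9 and 25.3 in si-SYISL. These are dim signals, above background on 1 si-NC array and all 3 si-SYISL arrays, and on the unscaled intensity the groups overlapped. After scaling they did not, and the difference was 0.51 ± 0.31 (SE, n = 2 a group; adjusted p of 0.270, limma). A second Cdkn2a probe (A_55_P2008438) was not above background on any array, at intensities of 2.58 to 9.70. Cdkn2d (p19INK4d), the remaining INK4 gene, was clearly detected, at 1.33, 1.72 and 1.34 in si-NC and 1.82, 1.47 and 1.79 in si-SYISL (A_55_P2022251, NM_009878). Replicate 2 of each group lay between arrays of the other group, so the groups overlapped. The difference was -0.055 ± 0.20 (SE, n = 2 a group; 95% interval -0.60 to 0.49; adjusted p of 0.744, limma).

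**Figure D2:**
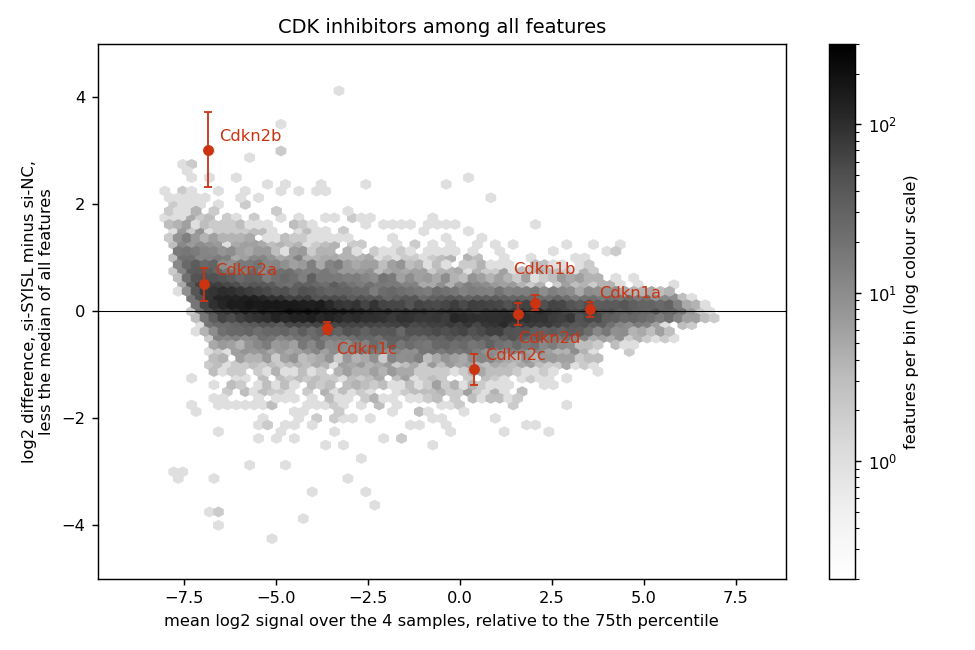
Log2 difference of every feature, si-SYISL minus si-NC less the median of all features (y axis), against its mean log2 level (x axis); grey bins count features on a log colour scale and red points are the 7 members with standard errors. Cdkn2b (3.02) and Cdkn2a (0.51) lie at the dim end, where the features as a whole lie higher, and Cdkn2c (-1.08) lies among brighter features.

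Of the 5 members above background on all 6 arrays, Cdkn1b, Cdkn1c and Cdkn2c had the same direction under each alternative (processing settings, samples left out and single scans). All alternatives reuse the same arrays, so a shared direction is a description and not a repeat of the result. Cdkn2c ranged from -1.41 to -0.73, Cdkn1b from 0.063 to 0.28 and Cdkn1c from -0.34 to -0.18 over 17 alternatives. Cdkn2b ranged from 0.70 to 3.89 and Cdkn2a from 0.060 to 0.92 over 16 alternatives; as both entered through si-SYISL alone, their shared sign is no sign of stability. The signs of Cdkn1a and Cdkn2d, by contrast, changed with the setting.

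**Figure D3:**
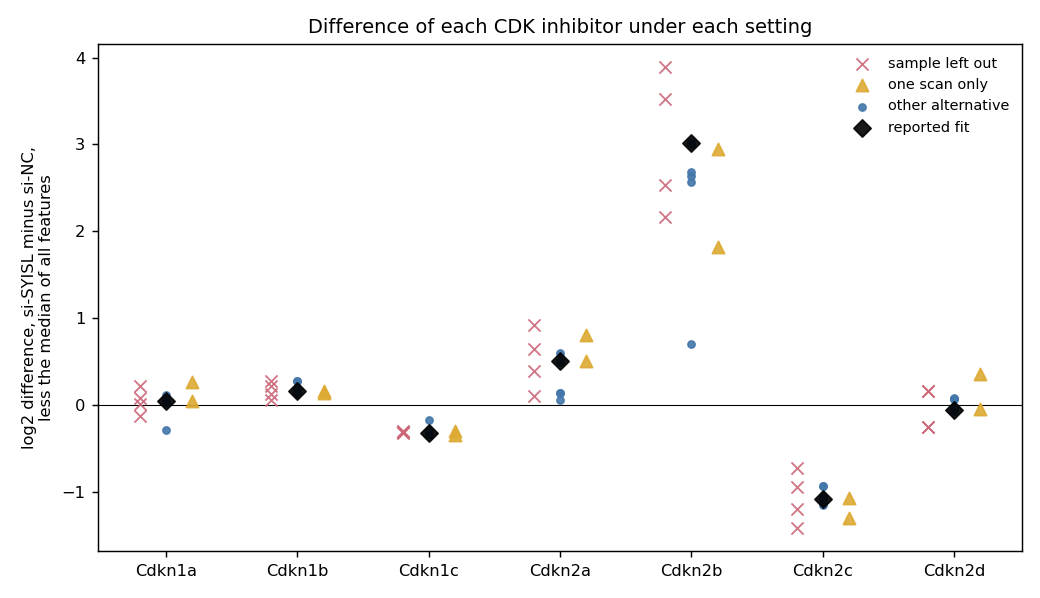
Log2 difference of each member (x axis), si-SYISL minus si-NC less the median of all features (y axis). A black diamond is the reported value, a cross the value with 1 sample left out, a triangle the value within 1 scan and a dot that under another alternative. Cdkn2c stays between -1.41 and -0.73 and Cdkn2b spreads from 0.70 to 3.89, while Cdkn1a and Cdkn2d fall on both sides of 0.

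Among the kinases and cyclins on which the inhibitors act, Cdk2 and Ccnd2 had the largest differences. Of 15 listed genes, 14 were measured and 0 passed the test (limma), with a median of -0.35. At an unadjusted p under 0.05, 4 were lower and 1 higher, against 5.85% of all features lower and 16.8% higher. Such counts, here and in the lists below, rest on differences before the median of all features is subtracted. Cdk2, the main kinase target of p21 and p27, had a level of -1.01 (replicates 1 and 3) and -0.74 (replicate 2) in si-NC, against -4.49 and -3.74 in si-SYISL. Its groups lay far apart, with a difference of -3.40 ± 0.29 (SE, n = 2 a group; adjusted p of 0.084, limma). Ccnd2, a D-type cyclin that INK4 proteins keep from Cdk4 and Cdk6, was at -0.46 and -0.52 in si-NC and at -1.75 and -1.95 in si-SYISL. That is a difference of -1.53 ± 0.13 (adjusted p of 0.084, limma). Cdk2 and Ccnd2 were each read by 1 kept probe. Across 15 alternatives Cdk2 ran from -3.73 to -2.84 and Ccnd2 from -1.66 to -1.38. Among the fits with no sample left out, both passed the threshold only where other features were called too. These fits were normexp correction (177 features called), the variance trend (904), the scan block (83) and 6 arrays as 6 samples (9764). The last counts near-identical arrays as samples.

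All 10 pocket protein and E2F genes were measured, 0 passed the test, and their median was -0.24. At an unadjusted p under 0.05, 0 were higher (16.8% of all features) and 2 lower (5.85% of all features). Those were E2f2, an activating E2F, at -0.80 ± 0.13 (adjusted p of 0.130, limma) and Rbl1 (p107) at -0.72 ± 0.15 (adjusted p of 0.158). A second Rbl1 probe gave 0.22 ± 0.15, the opposite direction. Among 11 measured of 13 listed partners and turnover factors, 0 passed and the median was -0.25. Dtl, which directs p21 to degradation in S phase, was at -0.66 ± 0.13. Skp1, a subunit of the ligase that removes p27, was at -0.46 ± 0.11, and Psme3, a proteasome activator that degrades p21, at -0.74 ± 0.22. In that order, the adjusted p was 0.159, 0.214 and 0.229 (limma, before subtraction of the median).

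Of 13 listed activators of the inhibitor genes, 12 were measured and 0 passed, with a median of -0.12. The 11 above background on all 6 arrays had a median of -0.14. At an unadjusted p under 0.05, 3 of them were lower (5.85% of all features) and 0 higher (16.8% of all features). Trp53 (p53), which induces Cdkn1a, was at -0.85 and -1.02 in si-NC and at -3.88 and -2.33 in si-SYISL. The si-SYISL samples were both lower and differed between themselves, giving -2.33 ± 0.54 (SE, n = 2 a group; adjusted p of 0.152, limma). Trp53 too was read by 1 kept probe. Myod1, the myogenic factor that induces p21 and also a member of the muscle lineage markers above, was at -0.78 ± 0.13 (adjusted p of 0.131, limma). Of 13 repressors of the inhibitor genes or of p53, all were measured and 0 passed, with a median of -0.27. Tbx2, which represses Cdkn1a and the INK4 locus, was at 0.88 ± 0.12 (adjusted p of 0.094, limma), and Hes1, a Notch-induced repressor, was at -0.68 ± 0.13 (adjusted p of 0.152). Tbx2 was above background on 1 si-NC array and 3 si-SYISL arrays, so it entered the test only through the group where it is high, and its value was 0.21 with normexp background correction (adjusted p of 0.358, limma). The 12 repressors above background on all 6 arrays had a median of -0.29. At an unadjusted p under 0.05, 1 of them was higher and 1 lower, against 16.8% and 5.85% of all features.

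**Figure D4:**
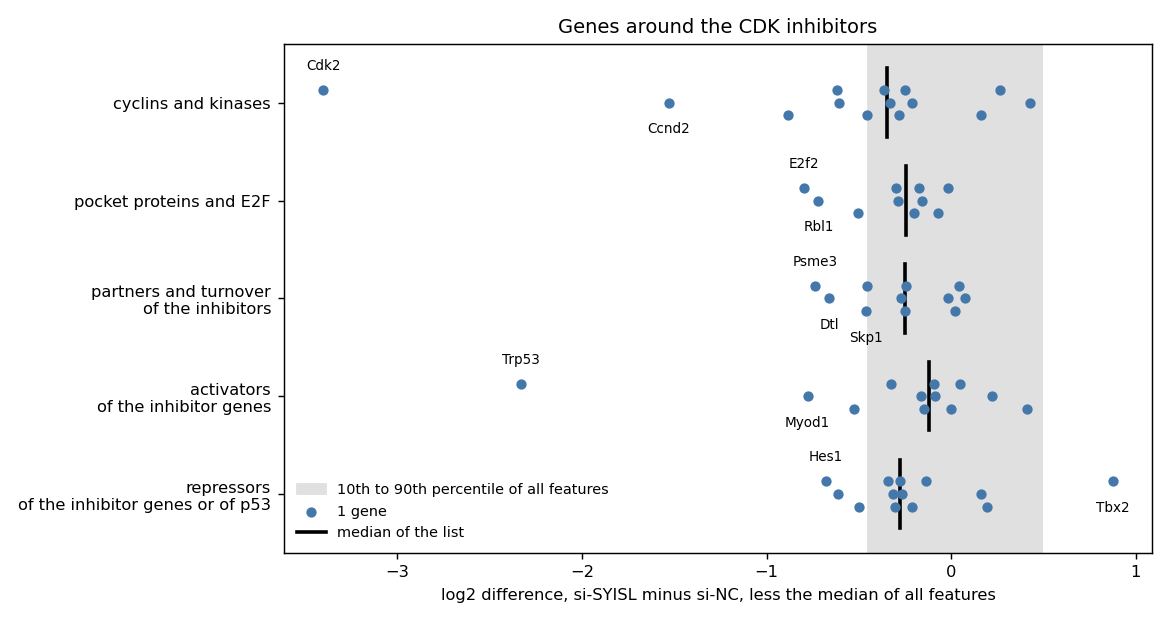
Log2 difference, si-SYISL minus si-NC less the median of all features (x axis), of each measured gene in 5 lists around the CDK inhibitors; a point is a gene, a bar the list's median, and the grey band the 10th to 90th percentile of all features. Cdk2 (-3.40), Trp53 (-2.33) and Ccnd2 (-1.53) lie farthest below the band, and the list medians lie between -0.35 and -0.12.

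Neighbouring genes in the GRCm38.p6 order were also read. Of 25 neighbours that are not members, 7 were measured, and their differences ran from -0.20 to 0.29 with 0 passing the test (limma, smallest adjusted p of 0.164). Beside Cdkn1c, Kcnq1ot1, the noncoding RNA of the same imprinted cluster, was at 0.078 ± 0.14 and Slc22a18 at -0.14 ± 0.15. Faf1, beside Cdkn2c, was at 0.15 ± 0.11, whereas Cdkn2c was at -1.08. Over the 4 samples, the genes whose centred log2 pattern was nearest to each member, among 18632 compared, were Celf5 for Cdkn1a, Mpg for Cdkn1b, Ss18l1 for Cdkn1c, Zbtb18 for Cdkn2c and Trim56 for Cdkn2d. Their root-mean-square distances were 0.007, 0.013, 0.002, 0.031 and 0.018 log2 units in that order, and with 4 samples and this many genes such distances are a description only.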

How the data were processed

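Total RNA (1 µg) of each sample was labelled with Cy3 and hybridised to a single-colour Agilent array. The deposited scanner files hold intensity (gProcessedSignal), background-subtracted by the authors' Feature Extraction software, version 11.0.1.1 per the file headers and 10.5.1.1 per the submitters' processing notes, together with median pixel intensities and flags per spot. The deposited series matrix holds values taken as log2, with a median of 8.58 on each array; its 34456 probes include 8 of the 10 member probes, and it served as an alternative.

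Control and outlier spots were left out. The log2 intensity less each array's 75th percentile was averaged over the spots of a probe. Probes were named through their RefSeq accession and the gene list of GRCm38.p6: 27234 probes matched 1 symbol and 12195 did not. The genome build of the array design differs, so no probe coordinates are given. A probe was kept where all 3 arrays of a group flagged it as well above background, and a gene was represented by its brightest kept probe, which left 28563 features (18638 named genes and 9925 unnamed probes).

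Differences were tested with limma 3.58.1 (lmFit and eBayes, two-sided) in R 4.3.3 with the data.table package (version 1.17.8), on 2 samples a group, with Benjamini-Hochberg adjustment over all features and a threshold of 0.05. The fit had 2 residual and 2.37 prior degrees of freedom and was tested on simulated data. Tables and figures used Python 3.11.15, pandas 2.3.3, numpy 2.4.6 and matplotlib 3.10.9. The number of arrays limits the precision. Members, gene lists and tests were chosen with earlier results of these data known. The genes named were every member with its probes and, from each list, the 2 with the smallest p and the 1 with the largest difference; of the neighbours and the nearest patterns, examples are given. Same-numbered samples deviated from their group means with a correlation of -0.03 across features (2 pairs), so the numbers were not taken as pairs. Alternatives covered background correction, scaling, the filter, the choice of probe, the variance model, scan and replicate blocks, 6 arrays as 6 samples, and each sample left out.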

Additional observations from a re-analysis of the deposited data

How the results depend on the processing

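The count of features past an adjusted p of 0.05 (limma), 0 as reported, became 177 with normexp background correction, 1 with median scaling, 904 with a variance trend and robust prior, 83 with all arrays fitted with the scan as a block and the shared sample as a random block, 9764 with the 6 arrays as 6 samples, and 0 to 1376 with 1 sample left out (276 without si-NC replicate 2 and 1376 without si-NC replicates 1 and 3). The count of members past it became 3 with 6 arrays as 6 samples (Cdkn1b, Cdkn2b and Cdkn2c, adjusted p of 0.043, 0.019 and 0.022) and 0 to 1 with a sample left out. The median of the members ran from -0.12 to 0.22 with a sample left out (0.086 without si-NC replicate 2). Cdkn1a changed sign to -0.29 as the mean of its probes, and ran from -0.12 to 0.22 with a sample left out. Cdkn2d changed sign to 0.073 with quantile normalisation, to 0.071 in the series matrix, to 0.085 with 6 arrays as 6 samples, and to 0.36 within the scan of replicate 3, and ran from -0.26 to 0.16 with a sample left out. The within-scan values were added after the data were seen and have no test. With the replicate block, 0 features and 0 members were called and Cdkn2c was at -1.08. For these changes the cause was not tested, except that counting arrays of near-identical signal as samples adds degrees of freedom. Signal near background limits Cdkn2a and Cdkn2b, which had no value under a filter on all 6 arrays.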
